A study of Homo sapiens with 6 samples.

Results

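The baseline transcriptome of HCT116 cells was described from the negative control (NC) group of an lncRNA-sequencing experiment. HCT116 is an established human colorectal carcinoma line. NC comprised 2 of the 6 libraries, and all 19871 gene symbols of the deposited mRNA table were taken. The other groups of 2 libraries each were cells with GAS5 (a long non-coding RNA) and cells with siYAP (siRNA against the transcription coactivator YAP). By its title, the series concerns GAS5 and the expression of YAP targets. All groups, NC included, appear in the labels under siRNA, and what the NC cells received is not given beyond that name. The labels state McCoy's 5a medium with serum, whereas the methods of the study state RPMI medium with serum, and transfection was by jetPRIME. All groups are 1 cell line, and nothing states whether the libraries came from separate cultures.

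The colon epithelium is renewed from crypt stem cells, whose daughters become absorptive colonocytes and secretory goblet or enteroendocrine cells. Wnt signalling through beta-catenin keeps crypt cells undifferentiated, and transcription factors such as CDX1, CDX2 and HNF4A drive intestinal maturation. Carcinoma lines keep this programme to varying degrees, and HCT116 is known as a poorly differentiated line with defective mismatch repair.

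Each value is the authors' mean of the NC libraries, so it has no SD and no n, and no test was made. The estimated counts behind NC summed to 27206123 per library on average, or 54412246 reads over both libraries. GAS5 libraries averaged 25521577 and siYAP libraries 26298036. A level is given in FPKM (fragments per unit of transcript length and library size), which is scaled by length and can be set side by side between genes. Intervals are 95% Wilson intervals on the reads of both libraries. They cover counting error only, not the spread between cultures. A count of 0 allows up to 3 reads over both libraries, or a mean count of 1.5.

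The markers set for the line were at high level with 1 exception. KRT18, a keratin of simple epithelia, had 834.67 FPKM (mean count 33810), EPCAM, an epithelial adhesion molecule, had 146.95 FPKM (mean count 5958) and CTNNB1 (beta-catenin) had 146.13 FPKM (mean count 11872). CDX1 was listed at 0 in NC, GAS5 and siYAP alike, so this marker went against the list. KRT18 and EPCAM match the label of an epithelial line, whereas the intestinal factor CDX1 goes against an intestinal identity. The list of 4 markers was therefore met in part only. CTNNB1 was not used to judge the label.

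Of the 19871 genes, 11651 (58.6%) had an FPKM of at least 1, and they are called expressed here. A level of at least 10 was reached by 6547 genes, at least 100 by 705 and at least 1000 by 77. The median of the expressed genes was 11.975 FPKM, with quartiles of 5.315 and 27.38. A gene near 1 FPKM had a median mean count of 74.3, so the threshold lay well above the counting limit. Expressed genes held 99.5% of all counts. At 0 were 4347 genes (21.9%), and 3873 lay between 0 and 1 FPKM. The numbers were close in the other groups, with 11636 expressed genes in GAS5 and 11611 in siYAP, and 11374 were expressed in all groups. Of the genes at 0 in NC, 3207 were at 0 in every group and 31 had over 10 mean counts elsewhere, at most 72.72 (GPR126, named after its value was seen). GPR126 is an older name of ADGRG6, a symbol listed apart with a mean count of 3412 in NC (20.56 FPKM). Its 0 therefore does not show that the gene is absent from NC.

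A small number of genes took much of the sequencing. The 10 highest genes held 7.91% of the counts (interval 7.90 to 7.91%) and the 100 highest held 23.4% (23.37 to 23.39%). Of the counts, 25% lay in 118 genes, 50% in 777 and 90% in 5720. On the FPKM scale the 100 highest genes held 34.6%. The median length of the highest annotated transcript of a gene was 2314 bases below 1 FPKM, 3269.5 at 1 to 10, 2728 at 10 to 100 and 820 at over 1000 FPKM. Of the 10 highest genes by count in NC, 8 were also among the 10 highest in GAS5 and 9 in siYAP.

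The highest genes serve translation, respiration, glycolysis and the cytoskeleton. MT-CO1, a subunit of cytochrome c oxidase encoded in mitochondrial DNA, came first with a mean count of 358458 (1.32% of counts) and 8497.64 FPKM. EEF1A1, which brings aminoacyl-tRNA to the ribosome, had a mean count of 332201, and EEF2, which moves the ribosome along the mRNA, had 201711. The glycolytic enzymes GAPDH, PKM and ENO1 had 6343.96, 1507.06 and 1680.365 FPKM. The actins ACTG1 and ACTB had 4324.97 and 1481.9 FPKM, and the chaperone HSP90AB1 had 1948.055. Of the 30 highest genes by count, 7 encode ribosomal proteins, led by RPS2 with a mean count of 178184, and 6 are mitochondrial. FAT1, a giant cadherin, FLNA, an actin crosslinker, FASN, the fatty acid synthase, and HMGA1, a chromatin protein, were also among the 30. FAT1 ranked 12 by mean count (99778) but 188 by FPKM (391.395).

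**Figure D1:**
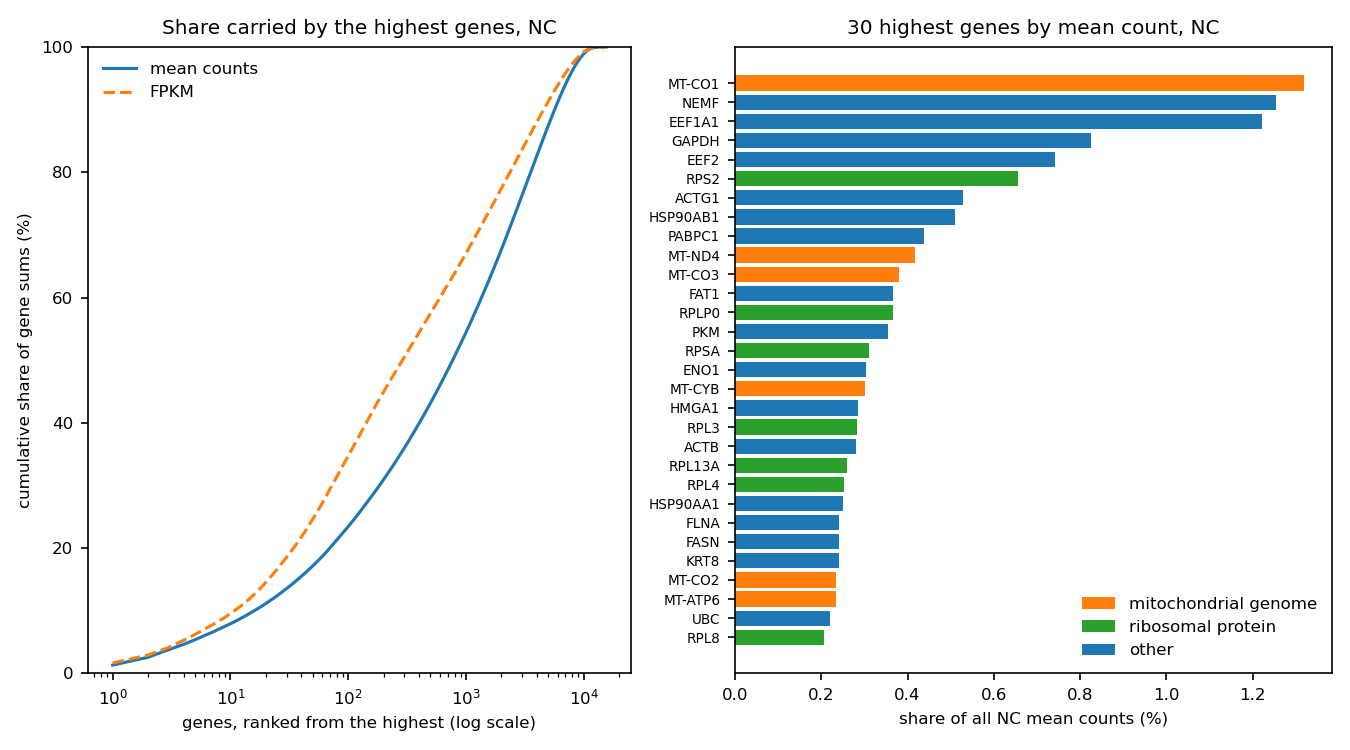
Cumulative share of NC gene sums in percent against gene rank on a log scale, for mean counts and FPKM (left), and the share of all NC mean counts in percent for the 30 highest genes (right, 1 bar per gene from 0). The 118 highest genes reach 25% of the counts, and MT-CO1 and NEMF are the longest bars.

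NEMF, a factor of ribosome-associated quality control, ranked 2 by count with 341012, but nearly all of it lay in 1 transcript. An assembled transcript (pieced together from the reads by the authors, without an Ensembl identifier) held 99.94% of the sum, and the annotated NEMF transcripts ENST00000298310 and ENST00000556672 held 127.935 and 62.085 mean counts. In GENCODE 29 on GRCh38, NEMF lies on the minus strand of chromosome 14 from 49782083 to 49853203. The signal recognition particle RNA gene RN7SL3 follows 412 bases beyond its 5′ end, from 49853616 to 49853914 on the same strand, and RN7SL2 lies from 49862550 to 49862849. The table gives no position for the assembled transcript, and whether it holds reads of RN7SL3 was not tested. Its FPKM was 1766.345, against 0.735 for the longest annotated NEMF transcript. Without NEMF the 10 highest genes held 7.12% of the counts.

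The 13 protein genes of the mitochondrial genome held 3.42% of the counts (3.417 to 3.426%), beside 3.21% in GAS5 and 2.54% in siYAP. Their levels were uneven. MT-CO1, MT-CO3 and MT-CO2 (subunits of complex IV) had 8497.64, 4796.535 and 3425.71 FPKM, and MT-ATP6 (ATP synthase) had 3408.905. MT-ND6, which is read from the opposite strand to the others, was lowest with 234.87 FPKM. Of 86 ribosomal protein symbols, 81 were expressed (94.2%, beside 58.6% of all genes) and 80 reached 100 FPKM. They held 7.71% of the counts and 18.3% of the FPKM. Ribosomal protein genes and EEF1A1 have many near-identical pseudogene copies, so their values are uncertain where reads were shared. The KEGG classes in the deposited annotation gave a median of 408.9 FPKM for Ribosome, 80.795 for Proteasome and 38.175 for Spliceosome.

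Ribosomal protein mRNAs are known to begin in a run of pyrimidines. The bases around the RefSeq start site (GRCh38.p14, from 15 bases before it to 15 after) are shown for 3 of the highest translation genes, with the letters CTTTCC in capitals where they occur.
RPL7A (9:133348203-133348232, plus strand): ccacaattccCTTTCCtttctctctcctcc
RPS16 (19:39435935-39435964, minus strand): gtggcccctagCTTTCCttttccggttgcg
RPL13A (19:49487593-49487622, plus strand): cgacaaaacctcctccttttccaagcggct
RPL7A stood at 2172.15 FPKM, RPS16 at 1871.38 and RPL13A at 2899.32. Other ribosomal protein genes among the highest, RPLP0, RPSA, RPL26, RPL12, RPL13 and RPL3, did not hold CTTTCC in this stretch. CTTTCC is a single string and does not define a run of pyrimidines. RPL13A, RPSA and RPL26 hold pyrimidine stretches there without it, so its absence does not mean that the run is missing. How many genes have such a run was not tested. Within 20 bases of the start site, on the transcribed strand, CTTTCC was found in 16 of 68 ribosomal protein promoters (23.5%) and in 298 of all 15590 promoters with a match (1.91%). A match of letters is a description and not a site.

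Several epithelial genes were at high level, whereas most listed genes of mature intestinal cells were below 1 FPKM. Of 28 genes of epithelial and colon identity, 19 were expressed (67.9%) and 5 were at 0, beside 58.6% expressed and 21.9% at 0 over all genes, so the count lay near that of all genes. The median of the list was 11.635 FPKM, beside 3.245 over all genes and 11.975 over the expressed ones. The simple-epithelium keratins KRT8 and KRT19 had 1274.085 and 976.835 FPKM. The tight-junction claudins CLDN7 and CLDN4 had 146.33 and 95.78, the splicing regulator ESRP1 had 89.415 and E-cadherin (CDH1) had 42.99. The intestinal transcription factors CDX2 and HNF4A were low, at 3.52 and 2.625 FPKM. CDX1 (a regulator), VIL1 (villin of the brush border), CEACAM5 and CEACAM6 (surface glycoproteins) were listed at 0. KRT20, a keratin of mature colonocytes, had 0.27 FPKM (mean count 13) and the intestinal cadherin CDH17 had 0.015.

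Of 21 enterocyte and colonocyte genes, 2 were expressed and 12 were at 0, beside 58.6% expressed and 21.9% at 0 over all genes. CA2, a carbonic anhydrase, had 14.695 FPKM (mean count 700.0) and FABP6, a bile acid binding protein, had 2.06 (mean count 47). FABP1, FABP2, SLC26A3 and CA1 were listed at 0. MUC2, the main goblet cell mucin, has no entry among the symbols used here. Of the 9 other goblet cell genes, FCGBP alone was expressed (1.41 FPKM) and TFF3, ZG16 and CLCA1 were at 0. None of 5 Paneth, 10 enteroendocrine or 6 tuft cell genes was expressed, and the highest were LYZ at 0.035, PYY at 0.86 and DCLK1 at 0.34 FPKM. At these levels a few reads make the value, and LYZ had a mean count of 1.5, at the counting limit.

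Genes of intestinal stem and progenitor cells were divided. Of 16, 11 were expressed (68.8%), near the 58.6% of all genes. Among them were CD44, a hyaluronan receptor, at 232.15 FPKM and SOX9, a crypt transcription factor, at 52.81. RNF43, a ubiquitin ligase that lowers Wnt receptors, had 29.7. The Wnt feedback genes ZNRF3 and AXIN2 had 4.71 and 4.475 FPKM. The crypt stem cell receptor LGR5 had a mean count of 0.5, that is 1 read over both libraries, and ASCL2, OLFM4 and SMOC2 were at 0. Of 19 Wnt ligands 7 were expressed (36.8%), led by WNT16 at 23.77 FPKM. Of 10 frizzled receptors 7 were expressed (70%), led by FZD6 at 15.11 and FZD2 at 8.175.

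Genes of other tissues were mostly below 1 FPKM, whereas 58.6% of all genes were expressed. Of 20 mesenchyme and fibroblast genes 5 were expressed, at most 8.845 FPKM for the transcription factor SNAI1, with vimentin (VIM) at 2.475, and COL3A1, COL1A2, DCN and LUM were at 0. Of 20 blood cell genes 1 was expressed (HBA2, 1.515 FPKM, mean count 25), and PTPRC, the pan-leukocyte marker, was at 0. None of 8 endothelial genes was expressed. Muscle, liver and a mixed list of lung, kidney, thyroid, pancreas and pigment genes gave 1 of 12, 1 of 10 and 1 of 15, namely DES at 2.845, SERPINA1 at 2.26 and PMEL at 2.79 FPKM. The median of the list was 0.065 FPKM for mesenchyme, 0.0125 for blood cells and 0.0225 for endothelium. Among 12 neuronal and glial genes 4 were expressed. SYT1, a calcium sensor of synaptic vesicles, had 36.425 FPKM (mean count 3071) and MBP, a myelin protein gene, had 18 (mean count 1459), while NEFL and NEFM were at 0.

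**Figure D2:**
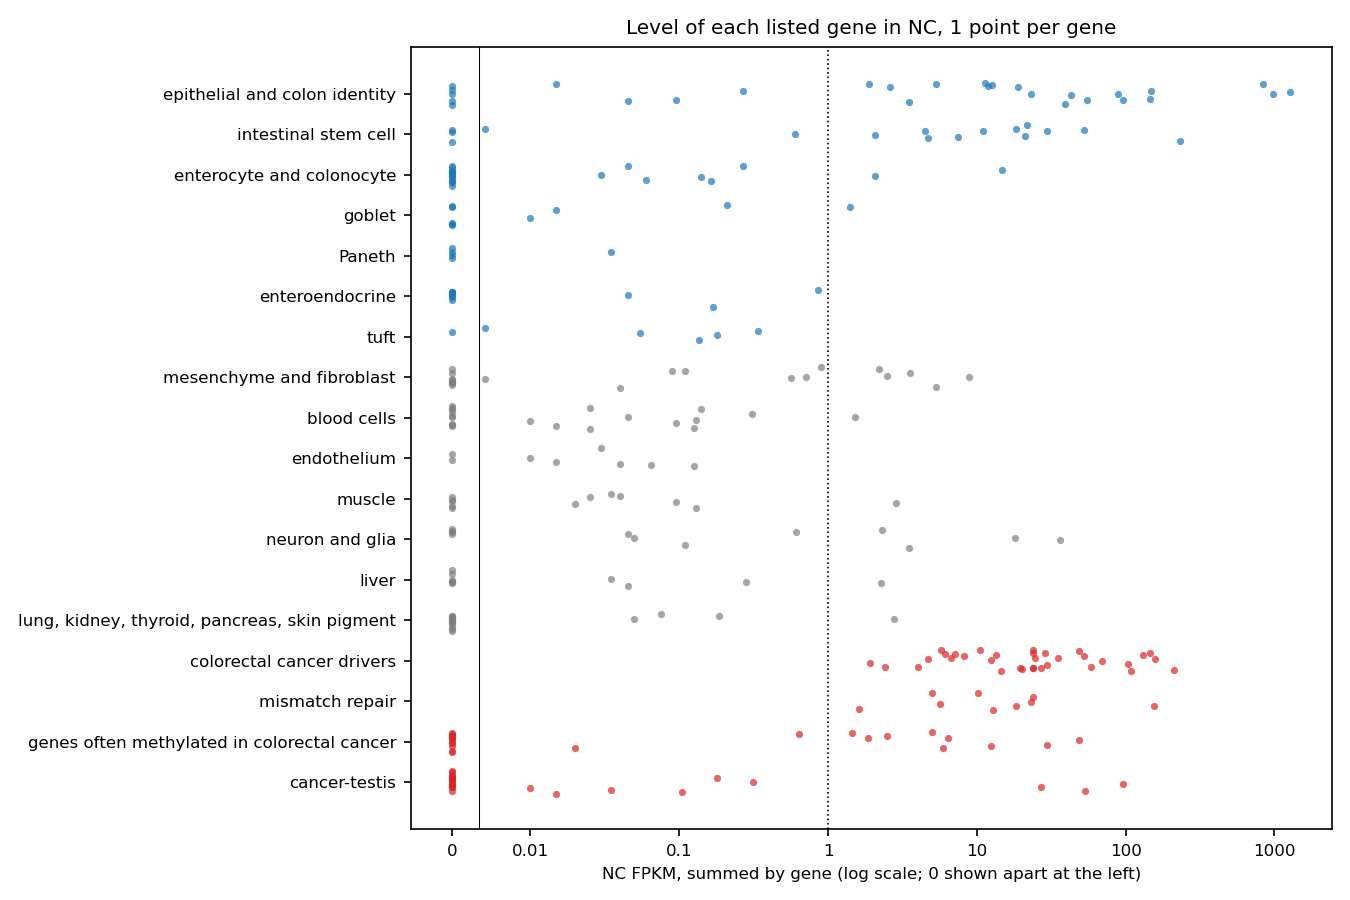
NC FPKM of each listed gene (log scale, 1 point per gene, genes at 0 set apart at the left) for intestinal lists in blue, other tissues in gray and cancer-related lists in red, with the dotted line at 1 FPKM. Every colorectal cancer driver and mismatch repair gene lies right of the line, whereas none of the Paneth, enteroendocrine, tuft or endothelial genes does.

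Large gene families with restricted expression were at or near 0 with few exceptions. Of 368 olfactory receptor genes 317 were at 0 and 5 were expressed. OR51B4 (chromosome 11, from 5301014 to 5301946), OR51B5 and OR51I1 on the same chromosome had 38.95, 20.745 and 13.63 FPKM (mean counts of 1008, 543 and 361). The value of OR1F12 (8.755 FPKM) came from assembled transcripts alone. Of 94 keratin-associated protein genes 84 were at 0 and 1 was expressed (KRTAP2-3, 1.31 FPKM). No beta-defensin of 39, no type I interferon of 17 and no late cornified envelope gene of 18 was expressed. Of 55 keratins 9 were expressed, and after KRT8, KRT19 and KRT18 the next was KRT7 at 31.46 FPKM. Of 15 mucins 1 was expressed, MUC3A at 2.3 FPKM, and MUC13, a transmembrane mucin, was at 0. Of 24 claudins 6 were expressed. Of 511 numbered zinc finger genes 354 (69.3%) and of 374 solute carriers 203 (54.3%) were expressed, beside 58.6% of all genes.

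All 34 colorectal cancer driver genes were expressed, beside 58.6% of all genes. MYC, the growth-promoting transcription factor, was highest at 212.98 FPKM (mean count 10707). The cell cycle inhibitor CDKN1A followed with 158.43, cyclin D1 (CCND1) had 131.165 and the receptor MET had 104.29. NRAS, a GTPase of the growth factor pathway, had 23.79 FPKM, and the kinase BRAF had 13.405. APC, the scaffold that targets beta-catenin for decay, had 6.67 and PIK3CA, a lipid kinase, had 4.03. The TGF-beta receptors TGFBR1 and TGFBR2 had 12.495 and 8.175 FPKM. The lowest was AMER1, another Wnt inhibitor, at 1.915.

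All 9 mismatch repair genes were expressed, beside 58.6% of all genes. PCNA, the sliding clamp, had 155.575 FPKM, and the mismatch sensor MSH6 had 23.82. PMS2, an endonuclease of the pathway, had 18.455. MSH3 was lowest at 1.625 FPKM (mean count 184).

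Of 24 genes often methylated in colorectal cancer 9 were expressed and 13 were at 0, beside 58.6% expressed and 21.9% at 0 over all genes. The Wnt antagonists SFRP1, SFRP2, SFRP5 and WIF1, the transcription factors GATA4 and GATA5, the mitotic checkpoint gene CHFR and the protease inhibitor TFPI2 were among those at 0. Expressed members included the cell cycle inhibitor locus CDKN2A (48.805 FPKM), the helicase-like HLTF (29.65) and MGMT (6.41), which repairs alkylated guanine. The CDKN2A value is a sum over transcripts and is not the level of any single product. ENST00000578845 held 46.7% of its counts (30.265 FPKM), ENST00000579755 44.6% (15.31 FPKM) and ENST00000304494 8.31% (3.01 FPKM). All values of this list are RNA levels, and methylation was not measured. Of 23 cancer-testis genes, normally restricted to germ cells, MAGEB2 (95.85 FPKM), MAGEA3 (53.09) and PRAME (26.9) were expressed and 14 were at 0. MAGEA6, a near-identical copy of MAGEA3, had 0.315 FPKM, and the split of reads between them is uncertain.

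HOX genes, which encode position along the body axis, were expressed by cluster. Of all 39, 23 were expressed (59.0%), near the 58.6% of all genes. HOXA had 10 of 11 genes expressed, HOXB 8 of 10, HOXC 4 of 9 and HOXD 1 of 9. HOXA spans chromosome 7 from 27092993 to 27200106 and HOXB spans chromosome 17 from 48528526 to 48729178. The highest were HOXA9 at 34.885, HOXB7 at 19.745, HOXB9 at 15.55 and HOXB8 at 13.5 FPKM. Within HOXA and HOXB the levels thus peaked in the middle of the series, and HOXB1 was at 0. HOXD8 had 3.44 FPKM and the other HOXD genes had at most 0.075, with HOXD10 and HOXD13 at 0. Of 48 nuclear receptors 27 were expressed (56.25%), again near the share of all genes. They were led by NR2F6 (53.61 FPKM) and the clock repressor NR1D1 (48.3), and the progesterone receptor PGR was at 0.

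**Figure D3:**
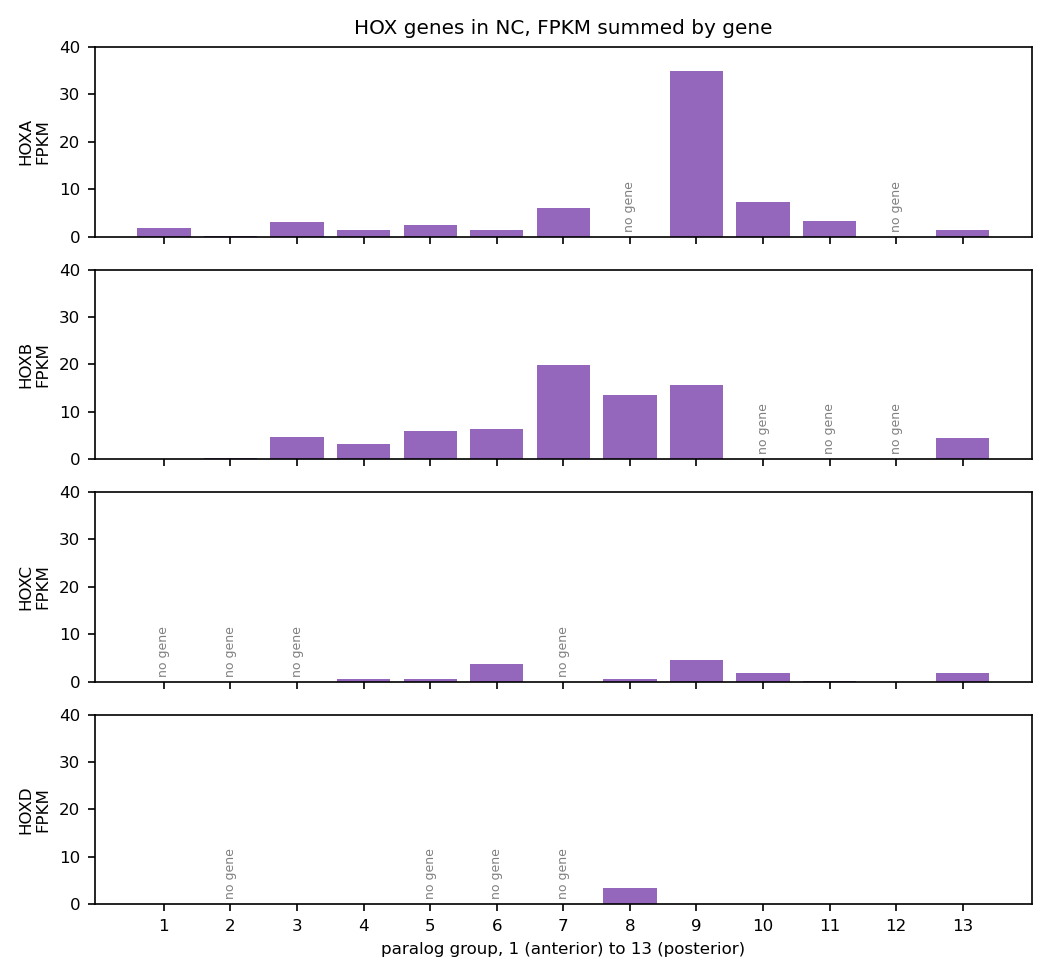
NC FPKM of each HOX gene (bars from 0) by paralog group in the 4 clusters, with positions that have no gene marked. HOXA9 is the tallest bar at 34.885 FPKM, HOXB7 to HOXB9 stand between 13.5 and 19.745, and HOXD8 is the one visible bar of its cluster.

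Replication-dependent histone mRNAs end in a conserved stem-loop in place of a poly(A) tail, and are made in S phase to package new DNA. The labels say that mRNAs and ncRNAs were enriched but not how, and these mRNAs were abundant in NC. Of 71 symbols 50 were expressed (70.4%), 38 reached 100 FPKM and 15 were at 0. Over all genes 58.6% were expressed, 3.55% reached 100 FPKM and 21.9% were at 0. They held 1.45% of the counts (1.452 to 1.458%) and 4.30% of the FPKM. By class the shares of counts were 0.481% for H2A, 0.423% for H2B, 0.250% for H4, 0.156% for H3 and 0.145% for H1. The 12 genes listed as variant histones with poly(A) tails held 0.279%, and H3F3B (533.075 FPKM) and H1F0 (370.95) led them. Whether all mRNAs of each listed gene, H2AFX (253.345 FPKM) among them, carry a tail was not tested. The replication-dependent share was 1.36% in GAS5 and 1.43% in siYAP.

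The stretch around the stem-loop is shown for 4 expressed histone genes, read from GENCODE 29 transcripts on GRCh38, with the stem-loop in capitals.
HIST2H2AA4 (chromosome 1, plus strand): caaaaGGCTCTTTTCAGAGCCacccacgtt
HIST1H2BC (chromosome 6, minus strand): ccaaaGGCTCTTTTAAGAGCCacccagata
HIST1H2BD (chromosome 6, plus strand): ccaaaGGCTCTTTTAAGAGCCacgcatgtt
HIST1H4J (chromosome 6, plus strand): taaaaGGCCCTTTTCAGGGCCacccta
The stem-loop was found in the last 150 bases of 12 of 53 annotated histone transcripts and in 5 of 13329 transcripts of other genes. The 41 histone transcripts without it ranged from 312 to 2679 bases, and 19 of them were shorter than the histone median of 503 bases. The 12 with it ranged from 373 to 571 bases, and 7 of them were shorter than that median. Where an annotated model is short, its end may not be in the sequence searched, which was not tested. Of the 12, 6 carried the form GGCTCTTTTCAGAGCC and 3 each the forms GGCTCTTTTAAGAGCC and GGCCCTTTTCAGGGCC. The poly(A) signal AATAAA stood in the last 50 bases of 22.6% of the histone transcripts, against 59.2% of the other transcripts. Of the 4 genes shown, 3 (HIST2H2AA4, HIST1H2BD and HIST1H4J) also hold AATAAA there. Only the sense strand was searched.

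Histone genes also share a start feature. TATAAA lay between 40 and 15 bases before the start site, on the transcribed strand, in 35 of 61 replication-dependent histone promoters (57.4%) and in 3.63% of all promoters. It was present in 24 of 43 promoters of histone genes with at least 1 FPKM and in 11 of 18 below it. Part of the promoter (RefSeq, GRCh38.p14) is shown for 3 genes with TATAAA in capitals.
HIST2H2AA4 (1:149851019-149851048, plus strand): cgccgttctgtcTATAAAaaggtgaagcag
HIST1H2AG (6:27133001-27133030, plus strand): ccaatagtgttTATAAAaagcgccgccttt
HIST1H1E (6:26156287-26156316, plus strand): cagctccgccctaTATAAAcgggcgggcgc

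The highest histone genes were HIST2H2AA4 with 2466.775 FPKM (mean count 38569), HIST2H4A with 2391.51 (mean count 38685), HIST1H1C with 1565.74 and HIST1H2BC with 1116.88. HIST1H2AJ, HIST1H4J and HIST1H2AG had 953.61, 928.58 and 903.51 FPKM. Among the linker histones HIST1H1C and HIST1H1E (558.365) were high, whereas HIST1H1B had a mean count of 1.5 and HIST1H1D was at 0. Members at 0 included HIST1H3F, HIST1H3G, HIST1H3H, HIST1H3I, HIST1H4F, HIST1H4K and HIST1H2BH. HIST1H4K has the same bases around TATAAA as HIST1H4J, which had a mean count of 9572. How reads were divided between these 2 genes was not tested. HIST2H3A and HIST2H3C carried equal values (279.215 FPKM), and counting may split reads between such near-identical copies. HIST2H4A (2391.51) and its copy HIST2H4B (3.39), and HIST2H2AA4 and HIST2H2AA3 (594.79), are uncertain for the same reason.

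**Figure D4:**
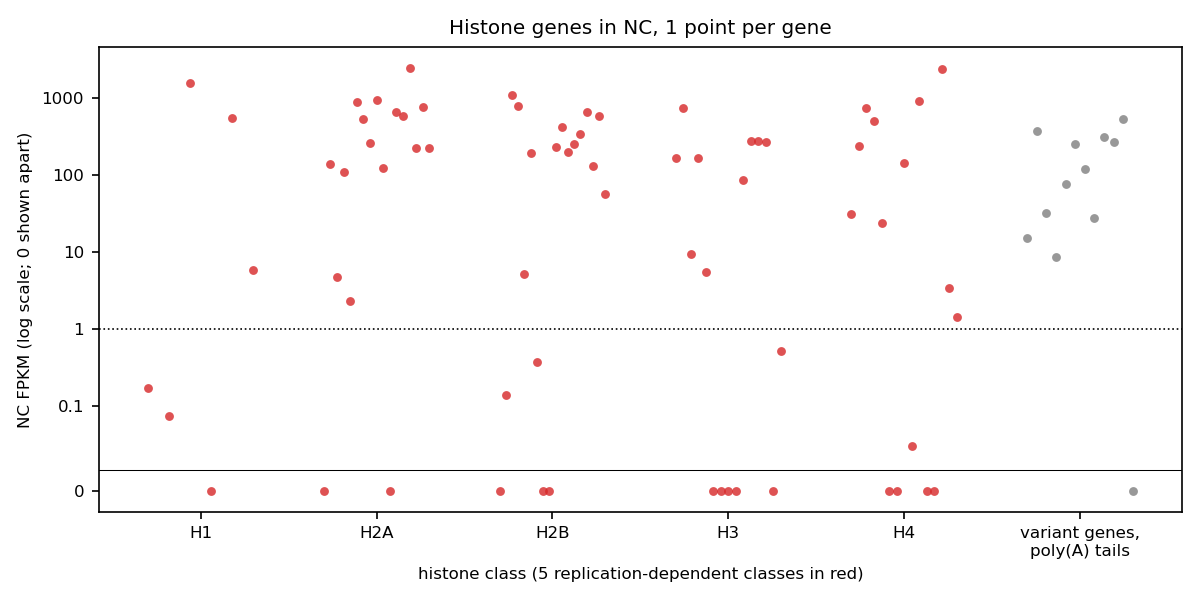
NC FPKM of each histone gene (log scale, 1 point per gene, genes at 0 set apart at the bottom) for 5 replication-dependent classes in red and the variant genes in gray, with the dotted line at 1 FPKM. Each class spans from 0 to at least 739.955 FPKM, and of the variant genes only H3F3C is at 0.

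Few transcripts carried most of a gene's counts. Among the 10178 genes that listed 2 or more transcripts and reached a mean count of 100, the median gene listed 5 transcripts and needed 2 for 80% of its counts. A single transcript sufficed in 3956 genes (38.9%), 2 were needed in 4214 (41.4%) and over 5 in 36. One transcript held over 50% of the counts in 8203 genes (80.6%), and its median share was 70.8%. Of the 63389 transcripts listed for these genes 27.1% were at 0. The highest transcript was a principal isoform of APPRIS (an annotation of the main protein form) in 69.4% of the genes with one. Of the listed transcripts, 22.9% were principal. The first is a share of genes and the second a share of transcripts, so the gap between them is not a measure of enrichment. The highest share fell with the number of transcripts listed, from a median of 92.7% with 2 to 44.2% with 20 or more. By depth it went from 69.1% at mean counts of 100 to 300 to 76.6% at over 10000. Counts of overlapping transcripts are estimates that divide shared reads, so a share has an error beyond counting.

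SMG1, a kinase of nonsense-mediated decay with segmental copies elsewhere on chromosome 16, needed the most transcripts among the 500 highest genes. It listed 56, needed 10 for 80% and had 30.4% in the highest. EEF1D, DST and ASPH needed 5 each, and HNRNPA1, PLEC, PCBP2, GNAS and BAG6 needed 4. EEF1A1 was divided almost evenly between ENST00000331523 (50.2%) and ENST00000309268 (49.2%). At the other end, CTNNA1 (alpha-catenin, which ties E-cadherin to actin) listed 28 transcripts and had 99.04% of its 16437 counts in ENST00000302763. ITGB1 (integrin beta-1) listed 18 with 94.8% in the highest, and PKM listed 16 with 90.9% in ENST00000335181. PFKP, RPS15 and PHGDH also held over 90% in 1 transcript, at 99.3%, 97.3% and 97.1%. MYC needed 3 transcripts for 80%.

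**Figure D5:**
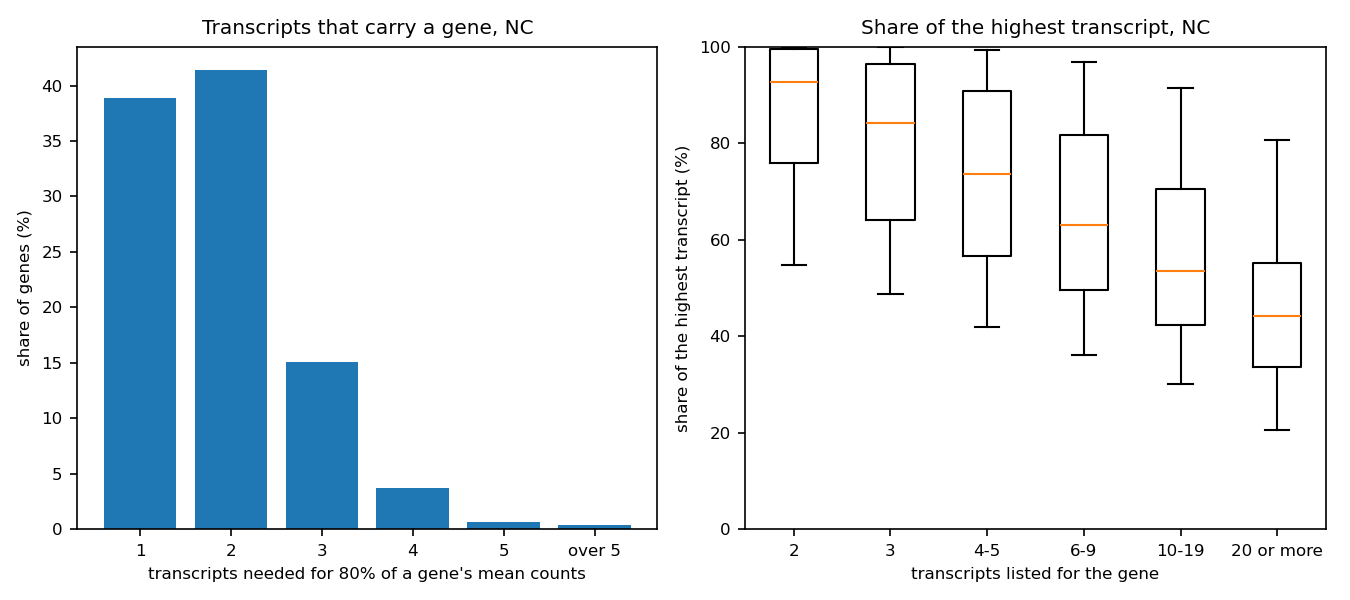
Share of genes in percent by the number of transcripts needed for 80% of a gene's NC mean counts (left, bars from 0), and share of the highest transcript in percent by the number listed (right, boxes for quartiles with the median in orange, whiskers at the 5th and 95th percentiles). Over 80% of genes need 1 or 2 transcripts, and the median share falls from 92.7 to 44.2%.

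Assembled transcripts held 11.4% of the NC counts. Of 5798 genes that had one and reached a mean count of 100, 1185 (20.4%) had over 50% of their counts there. Beside NEMF these included PFN1, an actin-binding protein (99.2%), the spliceosome helicase SNRNP200 (99.5%), TRIM28, a corepressor (95.1%), and PABPC1, the poly(A)-binding protein (69.6%). EPCAM had 66.1% in 1 assembled transcript. ESRG, with a mean count of 52231, had all of it in 7 assembled transcripts. A symbol can also be split, as 168 symbols are older names of another listed symbol and together hold 0.311% of the counts. GNB2L1 and RACK1, names of 1 ribosomal scaffold gene, had mean counts of 26241 and 11957, and WASH1 had 3018 where WASHC1 was at 0. A value of 0 can therefore hide counts under another name.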

How the data were processed

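RNA of HCT116 cells had been sequenced as strand-specific libraries (dUTP), and TopHat2 2.1.1 is named in the submitters' processing notes. The counting tool, genome build and strand setting of the counting are not given in the sources used here. The deposited values are estimated counts and FPKM, each an average the authors took over 2 libraries for every mRNA transcript, with an FPKM of 0 written as 0.001, read here as 0. The deposited log2 fold change, p-value and FDR columns were not used. Values were summed by symbol in upper case. The 339 transcripts without a symbol (0.224% of counts) entered the totals only. Identifiers were matched to GENCODE 29.

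Python 3.11.15, numpy 2.4.6, pandas 2.3.3 and scipy 1.17.1 were used. The transcript measures were tested on simulated counts drawn from known transcript shares. That test covers sampling error only, not the division of reads between overlapping transcripts. Gene lists and the order of the results were chosen with earlier results of these data known. Genes named are the 30 highest by count, the 10 highest by FPKM, list members, leading and absent histones, and extremes of transcript number among the 500 highest genes. Others were chosen after their values were seen.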

Additional observations from a re-analysis of the deposited data

Results flagged for a closer look

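Transcripts without a gene symbol were in no gene sum, and 2 assembled ones stood out there above the counting limit. The highest had a mean count of 18674.36 in NC (839.06 FPKM), 15042.42 in GAS5 and 19540.32 in siYAP. The next had 16661.9 in NC (349.19 FPKM), 15758.0 in GAS5 and 16686.47 in siYAP. Together they held 58.1% of the counts of the 339 transcripts without a symbol, and the third had 1453.52.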

How the results depend on the processing

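No paired analysis was possible because single libraries have no columns, and leaving out each replicate was not run for the same reason. Of 39 alternatives over 7 results, 27 left the value within counting error or within 1.5 times. Those 27 include the NC columns of the GAS5 table, which repeat the same NC count for all 92866 transcripts. Their equal values were fixed in advance and show nothing about robustness. The limit of 1.5 times is wide, as 8904 expressed genes against 11651 fell within it. Expressed genes ranged from 8904 at 5 FPKM to 13186 at a mean count of 10. Without assembled transcripts the share of counts was 7.85% in the 10 highest genes, 24.1% in the 100 highest and 1.49% in replication-dependent histones. On FPKM these shares were 9.52%, 34.6% and 4.30%. Without mitochondrial genes the first 2 were 7.15% and 21.6%. Merging older symbols gave 23.5% for the 100 highest and leaving out NEMF gave 7.12% for the 10 highest, both chosen after seeing the data. At a minimum mean count of 1000, 4120 of 5101 genes had 1 transcript over 50% (80.8%), since fewer genes were tested. For 50% of the counts the median gene needed 1 transcript. Elsewhere the cause was not tested. At mean counts of 10, 100 and 1000, counting error alone gives a coefficient of variation of 22.4%, 7.07% and 2.24%.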
